A study of Homo sapiens with 6 samples.

Results

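The clathrin endocytosis machinery was examined as a set of 10 genes chosen by symbol, out of 58051 genes in the expression table. The set holds the clathrin chains CLTC, CLTA and CLTB, the AP2 adaptor subunits AP2A1, AP2B1, AP2M1 and AP2S1, and the accessory genes DNM2, EPN1 and PICALM. All 10 were found once each and all 10 passed the filter on low values, as did 15574 genes in all. All libraries came from MDA-MB-231, a widely used human line of breast cancer cells, labelled as wild type. The cells had been stained with FITC-tagged recombinant human FABP4, a fatty acid carrier protein, and divided on a flow cytometer. Both groups were therefore stained and sorted, and they differ in whether the cells bound the protein: 3 FABP4 binding libraries and 3 FABP4 non-binding libraries, 6 in all. Whether the replicates are different cultures, or repeat preparations of 1 culture, is not in the labels; a p-value here therefore reflects library-to-library spread, which may be technical.

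Clathrin-coated pits carry receptors and their ligands from the plasma membrane into the cell. Heavy chains with bound light chains form triskelia that assemble into a lattice, and the AP2 complex links that lattice to membrane lipid and to sorting motifs in receptor tails. Epsin and CALM, the product of PICALM, help to bend the membrane, dynamin cuts the neck of the pit, and HSC70 with auxilin or GAK then strips the coat. In breast cancer cells this route takes up the transferrin and EGF receptors, among others. RNA levels measure neither the binding of FABP4 nor its uptake.

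Each library summed to 1000000 TPM, a length-corrected share of transcripts, which leaves the read depth of the libraries unknown. Of the 8 markers of MDA-MB-231, all passed the filter, and 5 were higher and 0 lower in the binding cells (limma, adjusted p under 0.05). Over all tested genes 19.6% were higher and 7.12% lower. At an unadjusted p under 0.05 (limma), 5142 of these 15574 genes were higher and 1821 lower. The 8 markers summed to 3328 to 3472 TPM in the non-binding group and 3922 to 4624 TPM in the binding group. Luminal breast markers, 6 of 8 tested with 1 higher and 1 lower, summed to 134.3 to 161 TPM in the non-binding group and 190.4 to 268.6 TPM in the binding group, and of these 8 only ESR1 was listed at 0 throughout. Markers of epidermal keratinocytes were present in a line where they are not defining: all 12 were detected, and their summed level was 3377 to 4810 TPM in the non-binding group and 1475 to 2650 TPM in the binding group, with 8 of 12 lower and none higher in the binding cells (limma; 10 lower and 0 higher at an unadjusted p under 0.05). No keratinocyte marker was at 0. Leukocyte, fibroblast, endothelial and adipocyte markers summed to at most 32.0, 60.7, 3.75 and 16.9 TPM in any library, with the adipocyte genes ADIPOQ and LEP at 0. Transcripts of the mitochondrial genome took 10.5% ± 0.667 of TPM in the binding group and 3.14% ± 0.208 in non-binding libraries (SD, n = 3 each). These differences, in the summed MDA-MB-231, luminal and keratinocyte markers and in mitochondrial RNA, run alongside every comparison given here. Their part in it was not tested. In sorted bulk RNA, fewer cells of a type and less RNA per cell cannot be told apart.

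RefSeq start-site sequences are shown for 4 of the genes. These are the paralogous light chain genes CLTA and CLTB, AP2S1 with the most positive change and PICALM with the most negative one. The changes of CLTA and CLTB differ in sign as deposited, but neither passed. CLTB turned negative with the common median (-0.11). The sequences were taken from RefSeq (GRCh38.p14), read 5′ to 3′ on the gene's own strand. Each is the longest stretch of the 250 bases before the RefSeq start that lies outside GENCODE 29 basic exons. The RefSeq start nearest to the GENCODE start was used for each gene. For AP2S1 it lies 678 bases inside the gene as GENCODE gives it, so that stretch is upstream of the RefSeq start only. The stretches are chr9:36190671-36190855 (plus strand), chr5:176416570-176416819 (minus), chr19:46850317-46850564 (minus) and chr11:86069883-86070110 (minus). Capitals mark GGGCGG (the GC box), CCAAT (the CCAAT box) and TGACGTCA (the cyclic AMP response element), on either strand.
CLTA: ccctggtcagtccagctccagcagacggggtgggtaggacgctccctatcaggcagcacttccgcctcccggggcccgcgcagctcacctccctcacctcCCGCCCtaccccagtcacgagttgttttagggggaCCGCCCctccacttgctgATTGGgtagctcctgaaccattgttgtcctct
CLTB: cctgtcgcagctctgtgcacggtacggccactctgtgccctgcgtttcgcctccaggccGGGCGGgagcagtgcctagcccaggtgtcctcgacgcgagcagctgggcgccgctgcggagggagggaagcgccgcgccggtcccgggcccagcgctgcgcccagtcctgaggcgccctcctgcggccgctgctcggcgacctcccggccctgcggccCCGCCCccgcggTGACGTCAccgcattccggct
AP2S1: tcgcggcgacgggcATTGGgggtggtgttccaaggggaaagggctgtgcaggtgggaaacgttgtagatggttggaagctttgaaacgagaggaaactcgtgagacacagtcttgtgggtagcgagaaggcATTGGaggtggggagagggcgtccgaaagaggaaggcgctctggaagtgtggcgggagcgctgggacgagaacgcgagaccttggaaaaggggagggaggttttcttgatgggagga
PICALM: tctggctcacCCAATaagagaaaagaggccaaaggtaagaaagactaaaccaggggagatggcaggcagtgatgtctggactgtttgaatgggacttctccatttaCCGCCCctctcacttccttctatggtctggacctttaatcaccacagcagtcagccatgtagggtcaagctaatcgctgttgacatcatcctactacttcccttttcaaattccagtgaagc

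All 10 genes had a RefSeq window. Against the GENCODE spans given with the genes, 3 windows lay outside (CLTB, DNM2 and EPN1), 5 partly inside (CLTA, CLTC, AP2A1, AP2M1 and PICALM) and 2 wholly inside (AP2B1, by 9276 bases to the RefSeq start, and AP2S1). All 250 bases of the CLTC window and 166 of the AP2M1 window were in GENCODE basic exons. Over the 250 bases before the RefSeq start a GC box was found in 8 of 10, against 42.6% of 35116 RefSeq windows of that length. CCAAT was found in 5 of 10 (32.0% of all windows) and TGACGTCA in 2 of 10, CLTB and AP2B1 (1.6% of all windows). CCGGAAG, the core bound by ETS factors, was in 1 of 10 (8.5%), while TATAAA (10.7%) and the E-box CACGTG (6.3%) were in 0 of 10. None of the motifs contains another, and each was sought on both strands. GC content of these windows ranged from 46.8% at PICALM to 76.4% at CLTB, against a median of 58.0% over all windows. A match is a description of letters, and the RNA data measure no binding at these sites.

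The summed level of the 10 genes overlapped between the groups, while the sums of chains, AP2 subunits and accessory genes did not. The 10 genes summed to 2434 ± 54.3 TPM in the binding group and 2511 ± 70.1 TPM in the non-binding group (SD, n = 3 each). Within that sum the clathrin chains held 876 ± 59.6 against 1008 ± 46.0 TPM and the AP2 subunits 1098 ± 93.7 against 895 ± 24.9 TPM. The accessory genes DNM2, EPN1 and PICALM held 459 ± 87.9 against 608 ± 14.9 TPM. The sums of the chains and of the accessory genes were lower in every binding library than in every non-binding library, and the AP2 sum was higher. Within the AP2 sum AP2S1 averaged 484 TPM in the binding group against 269 TPM in the non-binding group, and AP2B1 206 against 174 TPM. AP2M1 was lower in every binding library, and AP2A1 overlapped. Within the accessory sum PICALM alone was lower, while DNM2 and EPN1 were higher in every binding library.

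By limma, 1 of the 10 genes passed a Benjamini-Hochberg adjusted p of 0.05, AP2S1, which was higher in binding cells. No member was lower at that threshold. At an unadjusted p under 0.05, 3 members were higher and 2 lower, beside 5142 higher and 1821 lower of all 15574 tested genes. Over all tested genes, 26.7% passed in either direction, 19.6% higher and 7.12% lower. A count of 1 among 10 is too small to set the members apart from these shares. The groups did not overlap for 7 of the 10 members, 4 higher and 3 lower. Over all tested genes 52.2% did not overlap, 38.6% higher and 13.6% lower. The median log2 change of the members was 0.17, against 0.36 for all tested genes. Shifting every library to a common median gave 1 member higher (AP2S1) and 2 lower (CLTA and PICALM), beside 18.3% of all genes called, 6.18% higher and 12.1% lower, and a median change of 0.04. Quantile normalization gave 1 higher (AP2S1) and 0 lower (2.0 and 0.0 at an unadjusted p under 0.05), beside 15.7% of all genes called, 7.69% higher. Removing the GC trend gave 0 higher and 1 lower (CLTA), beside 6.14% and 10.5%. In that fit, 1 member was higher and 6 lower at an unadjusted p under 0.05, beside 2626 and 3014 of 15537 genes. A stricter filter of 5 TPM gave 3 higher (AP2S1, DNM2 and EPN1) and 1 lower (PICALM), beside 32.7% and 11.7% of the genes left. Leaving out non-binding replicate 3 gave 0 and 0 by limma, beside 0.372% and 0.0385%. Without that library, 1 member was higher and 1 lower at an unadjusted p under 0.05, beside 4198 and 1433 of all 15574 genes. Of all calls, 73.3% were higher as deposited, 33.7% at the common median, 49.0% after quantile normalization and 37.0% once the GC trend was removed.

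**Figure D1:**
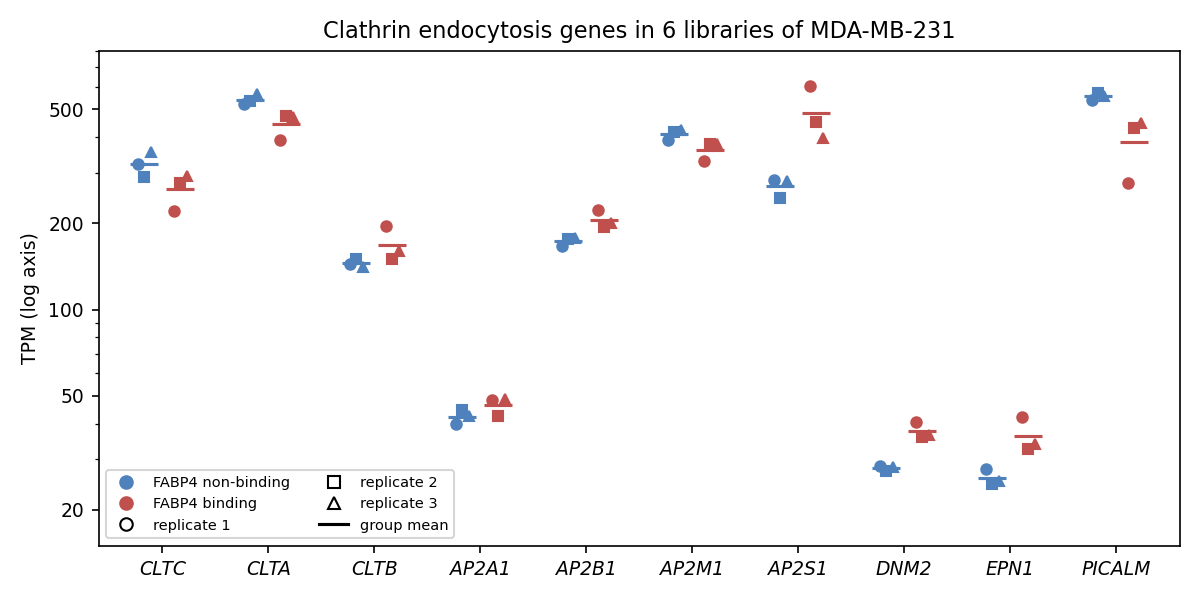
TPM (log axis) of the 10 genes in each of the 6 libraries; blue points are non-binding and red points binding libraries, symbols give the replicate number, and horizontal bars are group means (n = 3). AP2S1 rose from 269 to 484 TPM on average and PICALM averaged 555 TPM in non-binding against 385 TPM in the binding group, while AP2A1, CLTB and CLTC overlap between the groups.

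CLTC (ENSG00000141367, chromosome 17, 59619689 to 59696956, hg38), the clathrin heavy chain that forms the legs of the triskelion, was at 321, 290.4 and 354 TPM in non-binding replicates 1 to 3 and at 221, 276 and 291 TPM in binding replicates 1 to 3. The highest binding library lay just above the lowest non-binding one, so the groups overlapped. The log2 change was -0.30 (95% interval -0.63 to 0.04, SE 0.15; adjusted p = 0.153, limma with Benjamini-Hochberg), or -0.65 relative to the median of all genes. It was -0.18 without binding replicate 1.

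CLTA (ENSG00000122705, chromosome 9, 36190856 to 36304781), one of the light chains that sit on the heavy chain and regulate lattice assembly, was at 522, 534 and 565 TPM in the non-binding group and 392, 472 and 470.4 TPM in the binding group, in replicate order. Every binding library lay below every non-binding library. The log2 change of -0.28 (SE 0.12) missed the threshold (adjusted p = 0.111, limma with Benjamini-Hochberg). It was -0.60 with the common median, where it did pass (adjusted p = 0.0407, limma with Benjamini-Hochberg, and 0.0386 to 0.465 across the alternatives run).

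CLTB (ENSG00000175416, chromosome 5, 176392455 to 176416569), the other light chain, was at 145, 150.4 and 140.3 TPM in the non-binding group and 196, 150.2 and 160 TPM in the binding group. Binding replicate 1 was the highest, and binding replicate 2 lay within the non-binding range. The log2 change was 0.21 (95% interval -0.11 to 0.52; adjusted p = 0.271, limma with Benjamini-Hochberg), and it turned to -0.11 with the common median and to -0.28 with the GC trend removed. The change was 0.09 without binding replicate 1.

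The balance of the light chains was also read within each library. CLTB made up 21.7%, 22.0% and 19.9% of light chain TPM in non-binding replicates 1 to 3 and 33.3%, 24.1% and 25.3% in binding replicates 1 to 3. Its share was higher in all 3 binding libraries, at 27.6% ± 5.01 against 21.2% ± 1.146 (SD, n = 3 each; exact two-sided permutation test, p = 0.1, the smallest that 3 against 3 allows). Over the 9 shares and ratios computed, 7 reached that smallest p, and their Benjamini-Hochberg adjusted value was 0.129. Such shares do not depend on how libraries are scaled to each other. The ratio of both light chains to the heavy chain was 2.36 ± 0.262 in binding and 2.14 ± 0.190 in non-binding libraries, with overlapping groups (exact two-sided permutation test, p = 0.4). The second heavy chain gene, CLTCL1, stayed minor: CLTC made up 98.7% ± 0.723 of heavy chain TPM in the binding group and 99.4% ± 0.0369 in non-binding libraries.

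AP2S1 (ENSG00000042753, chromosome 19, 46838136 to 46850992), the small sigma subunit that helps AP2 to read dileucine sorting motifs, was at 283, 244 and 280.3 TPM in the non-binding group and 604, 450.3 and 397 TPM in the binding group. Each binding library exceeded each non-binding one, with binding replicate 1 the highest. AP2S1 rose 1.80 times on the mean, a log2 change of 0.82 (95% interval 0.43 to 1.22, SE 0.17; adjusted p = 0.0193, limma with Benjamini-Hochberg), or 0.47 relative to all genes. The change was 0.51 with the common median and 0.89 after quantile normalization, and AP2S1 passed under both. The AP2S1 call was lost without non-binding replicate 2 (log2 change 0.76; adjusted p = 0.0671, limma with Benjamini-Hochberg), without non-binding replicate 3 (0.85; adjusted p = 0.0606) and with the GC trend removed (0.46; adjusted p = 0.0569). Across all alternatives for AP2S1 the adjusted p ran from 0.00754 to 0.0671.

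AP2M1 (ENSG00000161203, chromosome 3, 184174689 to 184184091), the mu subunit that binds tyrosine-based sorting motifs and is phosphorylated by the kinase AAK1, had a change of the other sign. It was at 390, 416 and 423 TPM in the non-binding group and 329, 378 and 379 TPM in the binding group, with no overlap. The log2 change of -0.18 (95% interval -0.45 to 0.09) missed the threshold (adjusted p = 0.261, limma with Benjamini-Hochberg), as did the -0.50 found with the common median (adjusted p = 0.0555). The change was -0.11 without binding replicate 1. The ratio of AP2M1 to AP2S1 showed the contrast of the subunits within each library: 1.38, 1.70 and 1.51 in non-binding and 0.544, 0.838 and 0.954 in binding libraries. All non-binding libraries had more AP2M1 than AP2S1 and all binding libraries had less (1.53 ± 0.163 against 0.779 ± 0.211, SD, n = 3 each; exact two-sided permutation test, p = 0.1).

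AP2B1 (ENSG00000006125, chromosome 17, 35578046 to 35726409), the beta subunit whose hinge binds clathrin, was at 167, 176 and 178 TPM in the non-binding group and 223, 194 and 201 TPM in the binding group. The groups did not overlap, but the log2 change of 0.24 missed the threshold (adjusted p = 0.147, limma with Benjamini-Hochberg) and turned to -0.08 at the common median and with the transcript length trend removed. AP2B1 over AP2M1 was 0.425 ± 0.00378 in non-binding and 0.574 ± 0.0907 in binding libraries (SD, n = 3 each; exact two-sided permutation test, p = 0.1). Binding replicate 1 gave the highest ratio, at 0.678, and the other binding libraries 0.513 and 0.530, all above the non-binding libraries.

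AP2A1 (ENSG00000196961, chromosome 19, 49766968 to 49807113), an alpha subunit whose appendage domain recruits accessory proteins, was at 39.8, 44.5 and 42.6 TPM in the non-binding group and 48.5, 42.6 and 48.6 TPM in the binding group. The groups overlapped, and the log2 change of 0.14 (95% interval -0.18 to 0.45; adjusted p = 0.456, limma with Benjamini-Hochberg) turned to -0.18 with the common median and -0.11 after quantile normalization, as well as -0.30 and -0.17 with the GC and length trends removed. It was 0.09 without non-binding replicate 1. The paralog AP2A2 was lower in level, at 10.6 ± 0.516 TPM in the non-binding group and 15.4 ± 0.993 TPM in the binding group, and its log2 change of 0.50 narrowly missed the threshold (adjusted p = 0.0524, limma with Benjamini-Hochberg). AP2A1 made up 79.9% ± 0.504 of alpha subunit TPM in the non-binding group and 75.1% ± 1.80 in binding libraries, lower in all 3 (SD, n = 3 each; exact two-sided permutation test, p = 0.1).

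**Figure D2:**
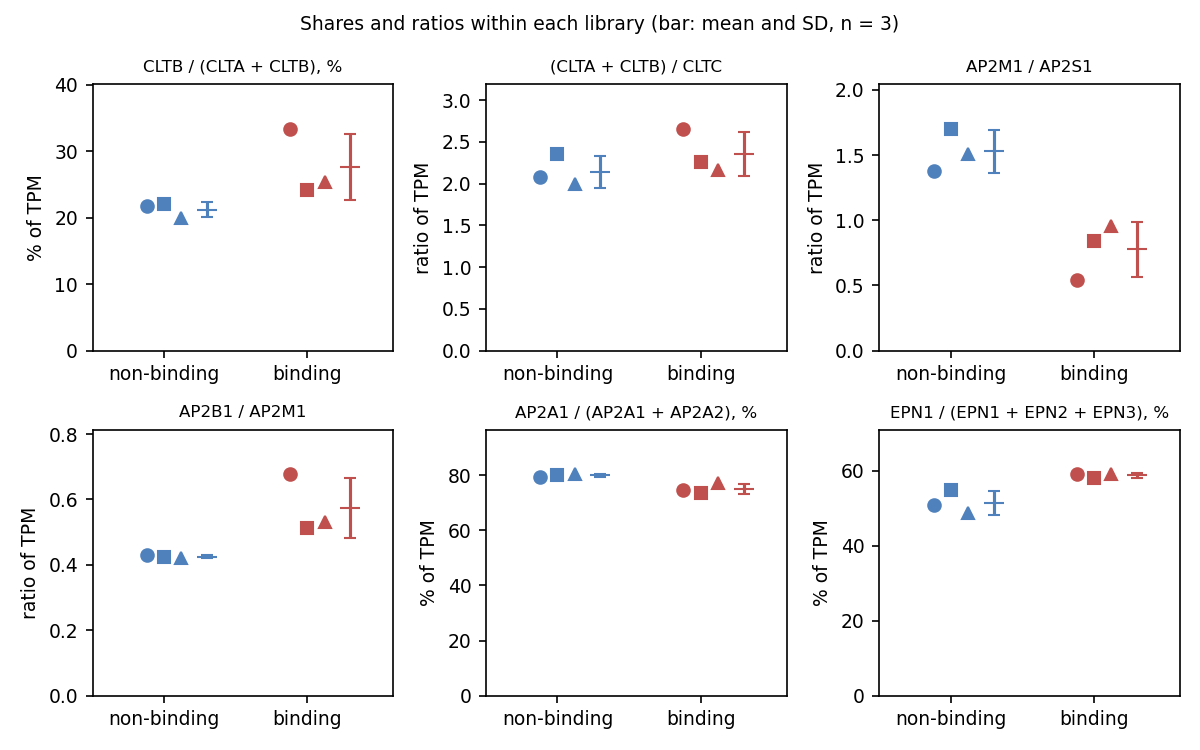
Shares (% of TPM) and ratios of TPM within each library; points are libraries with the symbol giving the replicate number, and bars give the mean ± SD of a group (n = 3). The CLTB share is 24.1% or more in binding and 22.0% or less in non-binding libraries, AP2M1 over AP2S1 is below 1 in all binding libraries, and the ratio of light chains to heavy chain overlaps between the groups.

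DNM2 (ENSG00000079805, chromosome 19, 10718079 to 10833488), the broadly expressed dynamin GTPase that severs coated pits, was at 28.5, 27.4 and 28.2 TPM in the non-binding group and 40.4, 35.9 and 36.5 TPM in the binding group. The groups were apart, with a log2 change of 0.41 (95% interval 0.10 to 0.72; adjusted p = 0.0555, limma with Benjamini-Hochberg), which is 0.05 relative to all genes. It was 0.09 with the common median, 0.11 after quantile normalization and 0.00 once the GC trend was taken out. Among dynamins DNM2 made up 79.8% ± 4.40 of TPM in the binding group and 75.7% ± 4.40 in non-binding libraries, with overlapping groups (exact two-sided permutation test, p = 0.5). DNM1, the dynamin best known from synapses, was at 9.10 ± 1.97 against 8.80 ± 1.91 TPM, and DNM3 stayed under 1 TPM in every library.

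EPN1 (ENSG00000063245, chromosome 19, 55675226 to 55709858), an epsin that inserts into the membrane and binds ubiquitin-tagged cargo, was at 27.7, 24.6 and 25.3 TPM in the non-binding group and 42.3, 32.6 and 33.9 TPM in the binding group. The groups did not overlap. The log2 change was 0.46 (95% interval 0.10 to 0.83; adjusted p = 0.0599, limma with Benjamini-Hochberg), or 0.11 relative to all genes, and 0.15 with the common median.

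Of the 5 tested paralogs of the members, 1 was lower, EPN3, and none higher (limma; 2 higher and 1 lower at an unadjusted p under 0.05). EPN3, an epsin found mainly in epithelia, fell from 12.4 ± 2.31 to 6.40 ± 1.04 TPM, a log2 change of -0.86 (SE 0.21; adjusted p = 0.0278, limma with Benjamini-Hochberg). Its adjusted p reached 0.0897 when 1 library was left out. The call was lost without binding replicate 3, without non-binding replicate 1, 2 or 3, and with no filter. EPN2 was at 12.2 ± 2.32 TPM in the non-binding group and 18.97 ± 3.02 TPM in the binding group, and its log2 change of 0.61 missed the threshold (adjusted p = 0.0558, limma with Benjamini-Hochberg). EPN1 held 58.8% ± 0.614 of epsin TPM in the binding group and 51.4% ± 3.14 in non-binding libraries, higher in all 3 (SD, n = 3 each; exact two-sided permutation test, p = 0.1). That total includes EPN3, which fell. Against EPN2, EPN1 did not gain, with a log2 change of 0.46 beside 0.61. The summed keratinocyte markers were likewise lower in the binding group, and their part in the fall of EPN3 was not tested.

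PICALM (ENSG00000073921, chromosome 11, 85957684 to 86069882), whose product CALM binds membrane phosphoinositide and sorts SNARE proteins into pits, was at 538, 572 and 554 TPM in the non-binding group and 276, 431 and 449 TPM in the binding group. All binding libraries were below all non-binding libraries, and binding replicate 1 was far below the other two. The log2 change was -0.56 (95% interval -0.99 to -0.12, SE 0.19; adjusted p = 0.06, limma with Benjamini-Hochberg), or -0.91 relative to all genes. It was -0.33 without binding replicate 1, where it passed with an SE of 0.07 (adjusted p = 0.027), -0.88 with the common median (adjusted p = 0.0459) and -0.44 after quantile normalization (adjusted p = 0.175). SNAP91, the neuronal paralog, stayed under 1 TPM in every library.

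**Figure D3:**
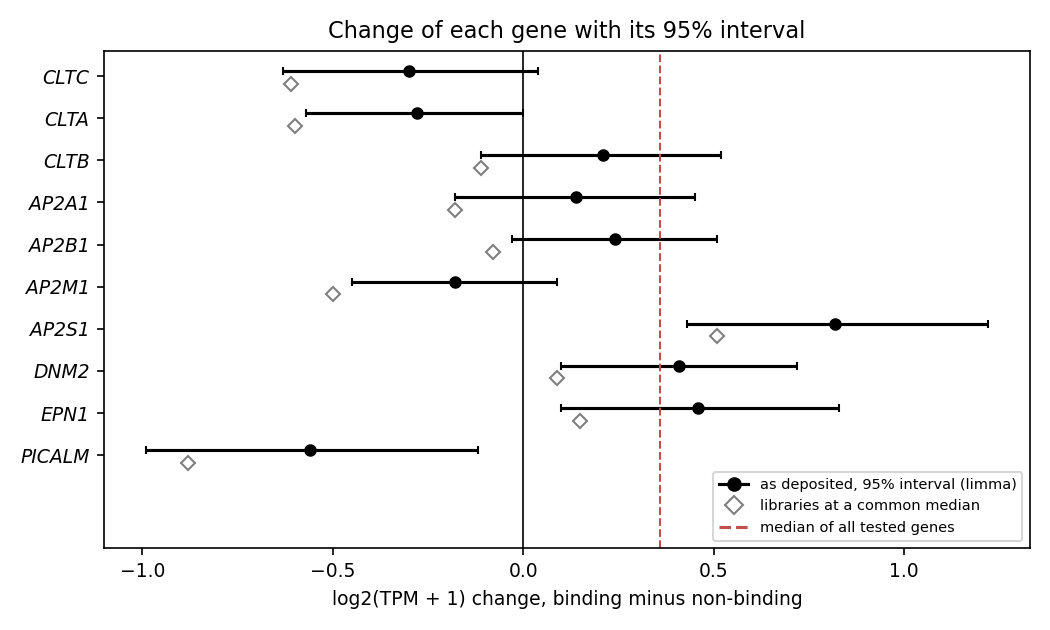
log2(TPM + 1) change, binding minus non-binding, of each gene; filled points with bars are limma estimates with 95% intervals, open diamonds the change with libraries at a common median, and the dashed line the median of all tested genes (0.36). The AP2S1 estimate of 0.82 lies above the line, and those of CLTC, CLTA, AP2M1 and PICALM lie below 0 with either scaling.

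In level, the genes formed a high and a low tier in both groups. In non-binding libraries PICALM (555 ± 17.1 TPM) and CLTA (540.4 ± 22.5) led with overlapping ranges, followed by AP2M1, CLTC, AP2S1, AP2B1 and CLTB, each apart from the next. AP2A1 (42.3 ± 2.37), DNM2 (28.0 ± 0.588) and EPN1 (25.9 ± 1.63) made up the low tier, with overlapping ranges for DNM2 and EPN1. In binding libraries AP2S1 moved from rank 5 to rank 1 (484 ± 107 TPM). There the ranges of AP2S1, CLTA, PICALM and AP2M1 overlapped from each to the next, while AP2M1 lay apart from CLTC. CLTC overlapped with AP2B1 and AP2B1 with CLTB. The order of the low tier was the same in both groups.

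For 9 of the 10 members binding replicate 1 was the binding library farthest from the non-binding mean, in the direction of the group difference. The same held for 68.7% of all tested genes. Of the 10 members, 4 lie on chromosome 19 (AP2A1, AP2S1, DNM2 and EPN1). All 4 had positive changes as deposited, as did 10600 of all 15574 tested genes. AP2A1 turned to -0.18 with the common median and DNM2 to 0.00 with the GC trend removed, while AP2S1 and EPN1 stayed positive in both. Over the 850 tested protein-coding genes of that chromosome the median change was 0.54, against 0.43 for all 12050 tested protein-coding genes. Transcript GC content ran from 42.4% in PICALM and 43.6% in CLTC to 64.8% in CLTB. The rank correlation of change with GC was 0.56 over the 10 members and 0.13 over 12044 protein-coding genes, as a description across genes that share the same libraries. The rank correlation of change with mean TPM was larger in size, at -0.61 over the members and -0.02 over those genes, and with transcript length it was 0.03 and -0.05. Among 5 equal classes of GC content, the lowest had a median change of 0.32 and the highest 0.52.

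The wider pathway was described with 9 lists holding 131 other genes, of which 117 were tested. The list of caveolae, pits that form without clathrin, is counted in these totals. By limma, 40 of the 117 were higher, 7 lower and 70 did not pass, beside 19.6% higher and 7.12% lower over all genes. Caveolae, with 6 genes tested, gave 6 of the 40. The median change of the 117 was 0.46. Over all 15574 genes, 5142 were higher and 1821 lower at an unadjusted p under 0.05 (limma). The common median left 13 higher and 11 lower, and quantile normalization 16 and 6. The counts were 2 higher and 0 lower without non-binding replicate 2, beside 1.80% and 0.514% of all genes. They were 0 and 0 without non-binding replicate 3, beside 0.372% and 0.0385%. At an unadjusted p under 0.05 (limma), 45 were higher and 7 lower without non-binding replicate 2, beside 4002 and 1525 of all 15574 genes. Without non-binding replicate 3 these unadjusted counts were 46 and 8, beside 4198 and 1433.

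Among early adaptors and scaffolds, which nucleate pits, 3 of 14 tested genes were higher and 2 lower, with a median change of 0.19 (1 and 2 with the common median). FCHO1, an F-BAR protein that acts at the start of pit formation, rose from 6.36 ± 0.467 to 13.6 ± 0.316 TPM (SD, n = 3 each; log2 change 0.99; adjusted p = 0.0140, limma with Benjamini-Hochberg). REPS1, an EPS15 homology domain protein and the most abundant gene of this list, fell from 39.2 ± 1.40 to 27.8 ± 0.620 TPM (log2 change -0.48; adjusted p = 0.0350 by the same test). The FCHO1 change was 0.67 and that of REPS1 -0.80 with the common median.

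Cargo-selective adaptors included 4 of 10 higher and none lower (limma; 4 and 1 at an unadjusted p under 0.05), with a median change of 0.42 (0 and 1 with the common median). NUMBL, a relative of the endocytic adaptor NUMB, rose from 6.73 ± 0.566 to 12.8 ± 0.704 TPM (log2 change 0.84; adjusted p = 0.0193, limma with Benjamini-Hochberg). ARRB2, beta-arrestin 2, was at 138 ± 16.1 TPM in the non-binding group and 105 ± 17.3 TPM in the binding group and did not pass (adjusted p = 0.0912 by the same test).

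Genes of BAR proteins and actin at the neck of the pit included 7 of 13 higher and none lower (limma; 8 and 1 at an unadjusted p under 0.05), with a median change of 0.58 (3 and 1 with the common median). FNBP1, an F-BAR protein, rose from 17.5 ± 1.61 to 32.3 ± 1.44 TPM (log2 change 0.85; adjusted p = 0.0143, limma with Benjamini-Hochberg). BIN1, an amphiphysin, was at 16.7 ± 2.10 against 11.7 ± 0.859 TPM and SH3GLB1, an endophilin-like protein and the most abundant of the list, at 146 ± 6.27 against 146 ± 21.5 TPM, non-binding first. Neither passed (limma with Benjamini-Hochberg, adjusted p = 0.0739 and 0.959).

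Of 11 genes of uncoating and phosphoinositide turnover, 4 were higher and none lower (limma; 5 and 1 at an unadjusted p under 0.05), with a median change of 0.60 (0 and 0 with the common median). INPPL1, the lipid phosphatase SHIP2, rose from 33.3 ± 3.17 to 51.3 ± 7.08 TPM (log2 change 0.60; adjusted p = 0.0317, limma with Benjamini-Hochberg). HSPA8, the HSC70 chaperone that strips clathrin, was at 1287, 1319 and 1377 TPM in the non-binding group and 644, 1110 and 1119 TPM in the binding group. Its groups did not overlap and the change did not pass (log2 change -0.51; adjusted p = 0.0992, limma with Benjamini-Hochberg).

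**Figure D4:**
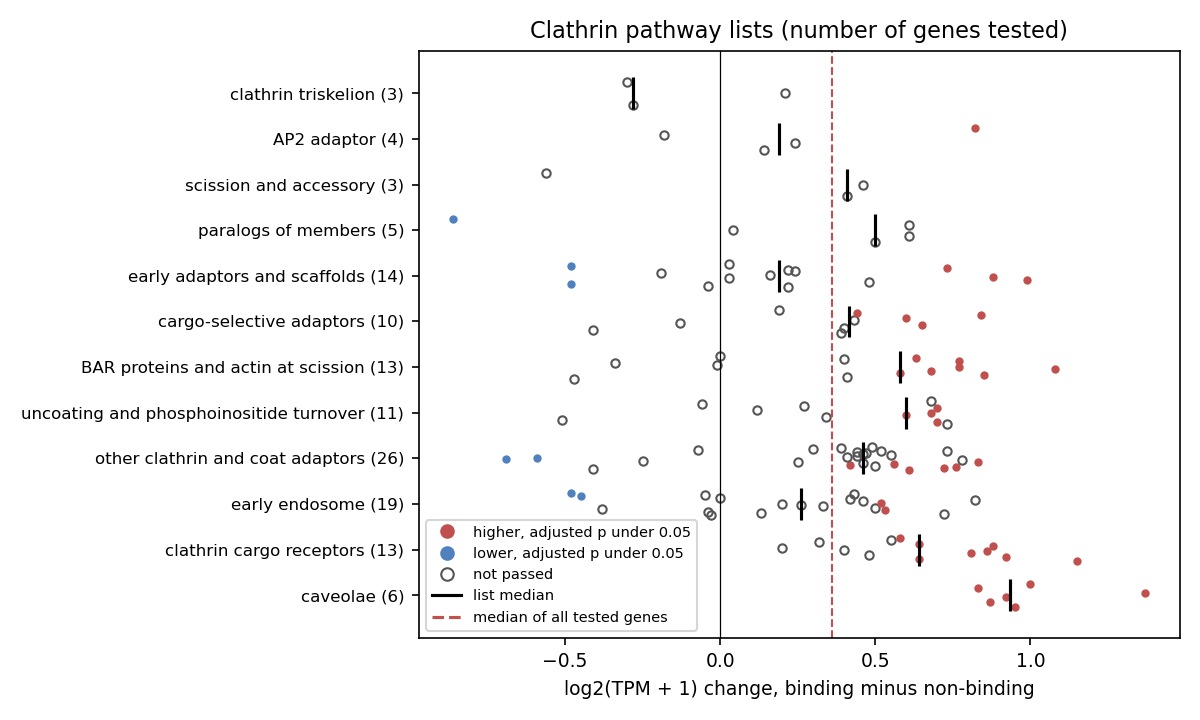
log2(TPM + 1) change, binding minus non-binding, of each tested gene in the 10-gene set (top 3 rows) and in the 9 other lists; red points passed upward, blue points passed downward and open points did not pass (limma, adjusted p under 0.05). Short black bars are list medians, from -0.28 in the clathrin chains to 0.94 in caveolae, and the dashed line is the median of all tested genes (0.36).

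The other coat adaptors, which act at the trans-Golgi network and endosomes, included 6 of 26 higher and 2 lower, with a median change of 0.46 (1 and 4 with the common median). AP3D1, the delta subunit of AP3, rose from 52.5 ± 5.51 to 95.1 ± 20.9 TPM (log2 change 0.83; adjusted p = 0.0206, limma with Benjamini-Hochberg). AP3S1, a sigma subunit of AP3 and so the counterpart of AP2S1, fell from 449 ± 26.1 to 284 ± 65.9 TPM (log2 change -0.69; adjusted p = 0.0326 by the same test). Among early endosome genes 2 of 19 were higher and 2 lower, with a median of 0.26 (0 and 2 with the common median). RAB5C, a small GTPase of early endosomes, rose from 107 ± 10.01 to 154 ± 12.2 TPM, while VPS35 and SNX2 of the retromer pathway fell from 93.9 ± 5.71 to 67.2 ± 4.505 and from 340.5 ± 4.499 to 252 ± 37.0 TPM (limma with Benjamini-Hochberg, adjusted p = 0.0279, 0.0322 and 0.0474).

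Cargo receptors and caveolae were taken last. Of 13 receptors that enter through clathrin-coated pits, 8 were higher and none lower (limma; 9 and 0 at an unadjusted p under 0.05), with a median change of 0.64 (4 and 0 with the common median). ITGB1, the integrin beta 1 subunit and the most abundant of them, rose from 251 ± 18.6 to 443 ± 57.2 TPM (log2 change 0.81; adjusted p = 0.0136, limma with Benjamini-Hochberg). Of 6 tested genes of caveolae, the flask-shaped membrane pits that form without clathrin, 6 were higher and 0 lower (limma; 6 and 0 at an unadjusted p under 0.05), and 4 were higher with the common median. Over all tested genes 19.6% were higher, and 6.18% with the common median. Without non-binding replicate 2, 1 caveolar gene and 0 receptors were higher, beside 1.80% of all genes. Without non-binding replicate 3 both counts were 0, beside 0.372%. All 6 caveolar genes stayed higher at an unadjusted p under 0.05 (limma) in both cases. At that unadjusted threshold, 4002 of all 15574 genes were higher without non-binding replicate 2 and 4198 without non-binding replicate 3. EHD2, an ATPase at the caveolar neck, rose from 38.2 ± 1.26 to 77.2 ± 3.35 TPM and CAVIN1, a caveolar coat protein, from 286 ± 19.6 to 549 ± 114 TPM (limma with Benjamini-Hochberg, adjusted p = 0.00915 and 0.0143).

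The contrast with the coat was also computed within libraries, for ratios chosen after the values were seen. CAV1, the main caveolin, over CLTC was 0.248, 0.255 and 0.214 in non-binding and 0.945, 0.451 and 0.436 in binding libraries. It was higher in all 3 binding libraries (2.55 times on the mean, n = 3 each; exact two-sided permutation test, p = 0.1). The other ratios given are AP2S1 over AP1S1, the sigma subunit of AP1, at 1.58 ± 0.0888 in non-binding and 2.11 ± 0.344 in binding libraries, and HSPA8 over CLTC, at 4.14 ± 0.347 and 3.59 ± 0.596 (exact two-sided permutation test, p = 0.1 and 0.3).

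The median log2 change of the members was 0.17 as deposited, against 0.36 for all tested genes, and -0.15 against 0.04 with the common median. As deposited, the mean log2(TPM + 1) of the 10 members ranged from 7.28 to 7.33 in non-binding and from 7.37 to 7.41 in binding libraries. Of 12040 other tested protein-coding genes, the 5 whose pattern over the 6 libraries was most like that mean were CYBRD1 (Pearson r = 0.996), TLN1 (0.996), LRIG1 (0.995), GYS1 (0.995) and ZNF600 (0.994). With 6 libraries in 2 groups and many genes searched, such values describe the pattern only. TLN1, which encodes the integrin-binding protein talin, averaged 111 TPM in the non-binding group and 138 TPM in the binding group.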

How the data were processed

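Per the labels' protocols, libraries were made from total RNA of the sorted MDA-MB-231 cells, depleted of ribosomal RNA and randomly primed. The authors deposited TPM for 58051 genes, a unit read from the values, since each column sums to 1000000. The submitters' processing notes name hg38 as build; aligner, quantifier and annotation are not stated there or in the labels (not given in the sources used here). Depth is lost in TPM, so counting intervals and count models were left out, and a change in one abundant RNA class moves the TPM of all others. Reads of near-identical copies may have been divided or dropped. Per the labels, the 2 groups have 3 libraries each.

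The filter kept the 15574 genes that reached 1 TPM in 3 or more libraries. They were tested on log2(TPM + 1) with limma (version 3.58.1, R version 4.3.3), an intensity trend and Benjamini-Hochberg adjustment at 0.05. This scale understates the change of low genes. Shares and ratios were computed within libraries and compared with exact permutation tests. Gene types, hg38 coordinates, transcript GC content and length came from GENCODE 29, which holds 99.0% of the gene identifiers and may not be the annotation the submitters used. Rows with no gene name held at most 0.02% of TPM and stayed in the fit. Besides the 10 members and their 7 paralogs, genes were named by a rule: in each list the smallest p in each direction and the highest mean TPM. The members and lists were chosen with earlier results of these data known. CAV1, AP1S1 and the 3 added ratios were chosen after their values were seen; 1 further ratio is not reported here. Alternatives covered the pseudocount, the filter, the scaling, the variance model, the replicate number and each library; removal of GC and length trends was added after seeing the data.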

Additional observations from a re-analysis of the deposited data

How the results depend on the processing

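As deposited, 3047 genes were higher and 1109 lower, 1 member was higher and 0 lower, and 40 pathway genes were higher and 7 lower. Higher counts over all genes were 962 with the common median, 1197 after quantile normalization, 954 and 1167 with the GC and length trends removed, 1373 without a filter, 1992 without the intensity trend and 58 to 1975 with 1 library left out. Lower counts were 1890 with the common median, 1670 with the length trend removed, 500 without a filter, 567 without the intensity trend and 6 to 888 with 1 library left out. Members higher numbered 0 with the GC trend removed, 2 after rescaling TPM over nuclear coding genes, 3 with the 5 TPM filter and 0 to 1 with 1 library left out. Members lower numbered 2 with the common median and with the length trend removed, 1 with the GC trend removed, with rescaling and with the stricter filter, and 0 to 1 with 1 library left out. Pathway genes higher numbered 13 with the common median, 16 after quantile normalization, 11 and 16 with the GC and length trends removed, 20 without a filter, 20 without the intensity trend and 0 to 29 with 1 library left out. Pathway genes lower numbered 11 with the common median, 11 with the length trend removed, 3 without a filter, 1 without the intensity trend and 0 to 7 with 1 library left out. The fewest calls came without non-binding replicate 3 and, next, without non-binding replicate 2. The cause of these differences was not tested. A stricter filter and rescaling test fewer genes, and leaving out a library leaves fewer samples.

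The sign reversed for CLTB (-0.11 with the common median, -0.28 and -0.09 with the GC and length trends removed), for AP2A1 (-0.18 with the common median, -0.11 after quantile normalization, -0.30 and -0.17 with the GC and length trends removed) and for AP2B1 (-0.08 with the common median and with the length trend removed). Of 160 values of a member under an alternative, 137 kept their sign and their side of the threshold. The share of PICALM among PICALM and SNAP91 differed by -0.166 percentage points as computed and by -0.255 with a pseudocount of 1. The other shares and ratios kept their sign and moved by less than the larger of the group SDs under the alternatives run. Without binding replicate 1 the difference in the CLTB share went from 6.42 to 3.54 percentage points, in the CLTC share from -0.783 to -0.373, in the DNM2 share from 4.02 to 1.61, in light chains over CLTC from 0.216 to 0.0672 and in AP2B1 over AP2M1 from 0.149 to 0.0970. Light chains over CLTC gave 0.143 without non-binding replicate 3, and the DNM2 share 6.16 and 1.76 without non-binding replicates 1 and 2.

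Same-numbered libraries deviated from their group means with correlations of 0.035, -0.017 and 0.028. Differently numbered libraries gave -0.074 to 0.062, the highest for binding replicate 2 with non-binding replicate 3. Binding replicates 1 and 3 correlated best with the non-binding library of the same number. With 3 libraries per group, such values cannot decide whether the numbers pair the samples. With the replicate number as a block, 3174 genes were higher and 1132 lower, 1 member was higher and 0 lower, 37 pathway genes were higher and 6 lower, and the AP2S1 change was 0.82. TPM gives no depth, so how far depth limits these comparisons is unknown.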
